A study of Mus musculus with 17 samples.

Results

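The 3 male WT PBS libraries, replicates 791, 792 and 793, were examined for what the dorsal hippocampus of these control mice expressed and at what level. They were chosen by their labels, as every library labelled male, WT and PBS, and they are 3 of the 17 libraries and 1 of the 6 groups of the series. The study asked how loss of ACSS2, which converts acetate to acetyl-CoA, and seeding with tau from human Alzheimer's disease brain alter the hippocampus, and these mice carried neither. They were male, wild type (WT) at Acss2, and received phosphate-buffered saline (PBS) by stereotaxic injection into the dorsal hippocampus at 6 months of age. The study's methods place the molecular work on its mice a further 6 months after the injection. WT and knockout lines alike descended from the F1 offspring of heterozygous breeders, each bred on as homozygotes. RNA was extracted with Trizol from slices that held the dentate gyrus and fields CA1 to CA3. The extraction protocol in the labels places a perfusion with paraformaldehyde before dissection, whereas the study's methods give that perfusion for histology only, so whether this tissue was fixed is unclear. The mice were operated controls, not untouched animals. The labels give each library its own number and say nothing further of litters or days, so the spread between libraries may be in part technical. No library of another group enters any value below.

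The hippocampus turns new experience into memory through a loop of excitatory synapses. Granule cells of the dentate gyrus contact CA3 pyramidal cells, which contact CA1, while local inhibitory neurons, astrocytes and myelinating oligodendrocytes surround this path. Fast excitation runs through AMPA and NMDA receptors for glutamate and fast inhibition through GABA-A receptors, and calcium entry through NMDA receptors acts on calmodulin, CaMKII and calcineurin to change synaptic strength. Each of these proteins draws on several paralogous genes, so the balance among paralogs is part of what defines the tissue.

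The libraries held 18246052, 19355501 and 16761392 counts (791, 792 and 793, in this order throughout). A level is given as CPM, the count of a gene per 1000000 counts of its library, and means are of the 3 libraries with their standard deviation (SD). A rank by CPM says which genes took the most counts, and long transcripts take more. To compare the levels of different genes, CPM per kilobase (CPM per kb) is used, the CPM divided by the merged length of all annotated exons of the gene. At this depth a count of 0 allows up to 0.164, 0.155 and 0.179 CPM, which covers counting error only. Of 24497 gene symbols, 18758 had a count in at least 1 library and 16674 had one in all 3. The libraries correlated across genes at r = 0.991 to 0.992 (log2 CPM, 11579 genes with a mean of at least 5 CPM). Genes are not independent replicates, so this is a description. No pair agreed within sampling noise, since the chi-square per gene ran from 6.13 to 8.90, and each library was counted as 1 sample.

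One library stood apart in a named group of genes. Replicate 791 held transcripts known from the cerebellum, which is not part of the dissected region. Gabra6, a GABA-A subunit of cerebellar granule cells, was at 36.8 CPM in 791, 0.0517 in 792 and listed at 0 in 793. Fat2, a cadherin of the same cells, was at 45.9, 0.258 and 0.0597 CPM. Cbln3, a secreted partner of cerebellin 1, was at 82.8, 0.568 and 0.776 CPM. The Purkinje cell genes Car8 (109, 4.80 and 5.97 CPM), Pcp2 (7.84, 0.310 and 0.298 CPM) and Ppp1r17 (13.3, 0.413 and 0.239 CPM) followed the same order. Over a list of 12 granule cell genes the summed level was 454, 130 and 142 CPM, and 791 was highest for each of the 12. Over 10 Purkinje cell genes the sums were 1346, 1029 and 854 CPM, and 791 was highest in 10 of 10. Both lists were drawn up after these values were seen, so they describe the library and test nothing. Several of their genes, Calb1, Itpr1, Neurod1 and Etv1 among them, are also expressed in hippocampus. Without 791 the mean sum fell from 242 to 136 CPM for the granule cell list and from 1076 to 941 CPM for the Purkinje cell list. What else these transcripts moved with was not tested.

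Of 28 lists of genes, the sum of 9 had a coefficient of variation (CV, the SD as a percentage of the mean) above 20% over the 3 libraries, both cerebellar lists included. All 12 markers of oligodendrocytes were highest in 792, with sums of 3528, 5322 and 3294 CPM. Immediate early genes summed to 1660, 2279 and 1798 CPM, and 18 of 24 were highest in 792. Markers of dentate granule cells summed to 302, 329 and 210 CPM and were lowest in 793 for each of the 8. All 8 genes of fibroblasts and meninges were lowest in 792, and the CV of their sum was 43.2%. It was 49.2% for the ependymal list and 22.3% for choroid plexus, both lowest in 791, and 25.5% for genes of neurogenesis and division. Immediate early genes (17.0%) and long noncoding RNAs (19.8%) lay just under 20%. How many of all genes were highest or lowest in each library was not counted, so such counts for lists, here and elsewhere, have no background. Over all 11579 genes with a mean of at least 5 CPM, 791 lay farthest from the mean for 3308, 792 for 4004 and 793 for 4267. In bulk tissue, fewer cells of a type and less RNA per cell cannot be told apart.

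**Figure D1:**
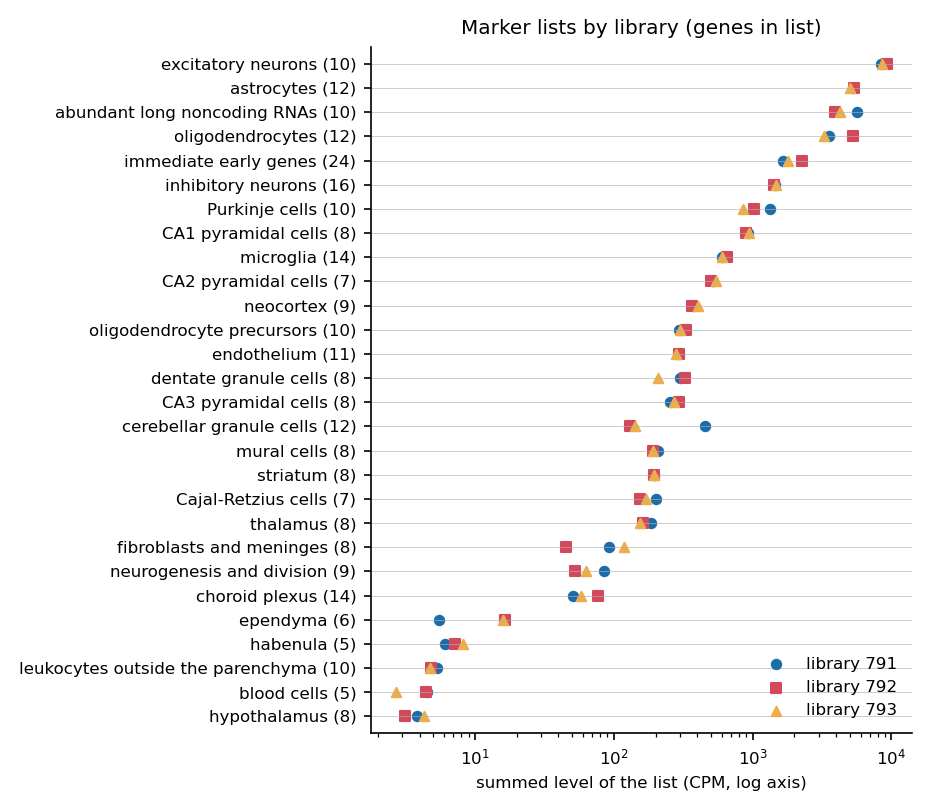
Summed level of each marker list in CPM (horizontal, log axis) in libraries 791 (circles), 792 (squares) and 793 (triangles), with the number of genes of the list in brackets. Most lists lie close together in the 3 libraries, while cerebellar granule cell genes are higher in 791 (454 CPM) and oligodendrocyte genes in 792 (5322 CPM).

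The 20 genes that took the most counts came from several functions. Camk2a, the alpha subunit of the calcium and calmodulin dependent kinase of the postsynaptic density, led at 3754, 4197 and 3475 CPM (mean 3809 ± 364 SD, n = 3). It lies on chromosome 18 of GRCm38 on the plus strand, with identifier ENSMUSG00000024617.16. Its merged exons span 7465 bases, and per length its place was 22 at 510.2 CPM per kb. Kif5a, a motor of axonal transport, reached 2960.0, 3388 and 3184 CPM, and Cpe, which trims neuropeptides, 2901, 2815 and 3217 CPM. Snap25 and Syt1, both of the machinery of vesicle release, had means of 2763 ± 62.9 and 1946 ± 82.2 CPM. Slc1a2, the glutamate transporter of astrocytes, was at 2346, 2449.5 and 2297 CPM.

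Others of the 20 highest were Calm3 for calmodulin, Ncdn and Ddn of dendrites, and Ppp3ca for calcineurin. They also included the chaperone Hsp90ab1, the glial secreted protein Sparcl1, App, Ndrg4, the glycolytic enzyme Aldoa, the lysosomal Psap, the pump subunit Atp1b1 and the iron store Fth1. Their means ran from 1932 CPM (Fth1) to 2764 CPM (Ncdn). The CV ranged from 0.910% for Sparcl1 to 11.9% for Ppp3ca over the 18 genes named. Membership was stable, as 17 genes were among the 20 highest in every library and 43 among the 50 highest.

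**Figure D2:**
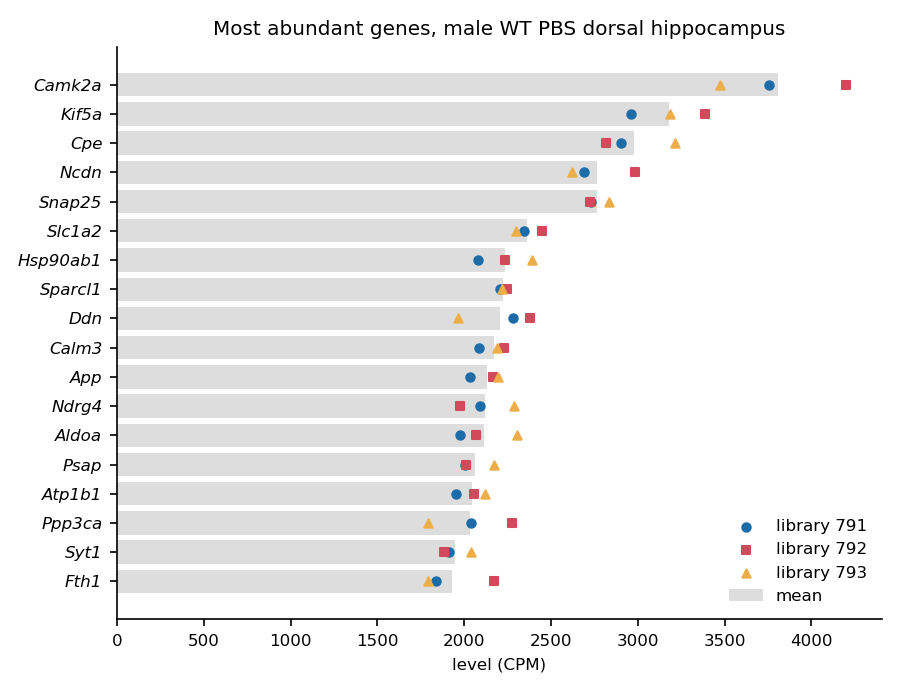
18 of the 20 genes with the highest mean level, in CPM (horizontal, from 0), with the mean as a grey bar and libraries 791 (circles), 792 (squares) and 793 (triangles). Camk2a leads at 3809 CPM, and Sparcl1 shows the closest libraries.

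Per length the order changed toward short transcripts. Cpe led at 1112, 1079 and 1233 CPM per kb and Calm2 came next at 1111, 1081 and 1061 CPM per kb. These overlapped. Cst3, a protease inhibitor secreted by glia, reached 951 ± 48.2 CPM per kb. Nrgn (neurogranin), which binds calmodulin in dendrites of principal cells, reached 916 ± 87.6 CPM per kb. Apoe, the lipid carrier of astrocytes, was at 819.7 ± 16.1 CPM per kb. Calm3 (895), Eef1a1 (764), Sparcl1 (757), Sepw1 (753) and Psap (752 CPM per kb) completed the highest 10. Of these, Eef1a1 shares 59.2% of its 50-base words with other annotated genes, so its value is uncertain.

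Expression was spread over many genes. The 50 highest by CPM took 9.38, 9.83 and 9.65% of counts, and 1137, 1086 and 1093 genes were needed to reach 50% of them. In every library 13591 genes reached 1 CPM, 9868 reached 10 CPM, 2289 reached 100 CPM and 80 reached 1000 CPM. Protein-coding genes took 99.0% of counts and long noncoding RNAs 0.779 ± 0.0866%. Meg3, an imprinted noncoding RNA of neurons, took the most counts of the latter at 2165, 1301 and 1633 CPM, with a mean of 1699 CPM that became 1467 CPM without 791. It was highest in 791, as were 8 of the 10 abundant noncoding RNAs listed, Snhg11 (1308, 819 and 869.7 CPM) and Miat (453, 286 and 311 CPM) among them. The sum of those 10 was 5639, 3926 and 4236 CPM, with a mean of 4600.3 CPM over all libraries and 4081 CPM without 791. Genes of the cytosolic ribosome took 0.937 ± 0.0225% of counts and nuclear genes of oxidative phosphorylation 1.17 ± 0.0275%, with median CVs of 3.17% and 3.43%. No mitochondrially encoded gene was in the table.

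Among the ionotropic glutamate receptors the AMPA subunits had the highest summed level per length (255 CPM per kb, against 73.1 for kainate and 64.2 for NMDA subunits). With no division by length the AMPA subunits again summed highest (2116 CPM), but NMDA subunits (606 CPM) exceeded kainate subunits (452 CPM). The order of these last families thus depended on length. The AMPA subunits share the pore, shown here because 1 codon of it separates Gria2 from its paralogs by function. The stretches are from exon 11 of Gria1, Gria2 and Gria3 and exon 12 of Gria4 (RNA sense, 5′ to 3′, 45 bases, GENCODE transcripts on GRCm38), and capitals mark the codon of the glutamine that RNA editing by ADAR2 (gene Adarb1) turns to arginine in Gria2.
Gria1, chr11:57243073-57243117, plus strand: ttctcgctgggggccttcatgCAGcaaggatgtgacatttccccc
Gria2, chr3:80706890-80706934, minus strand: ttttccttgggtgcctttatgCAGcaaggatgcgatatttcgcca
Gria3, chrX:41610244-41610288, plus strand: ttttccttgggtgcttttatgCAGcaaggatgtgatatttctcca
Gria4, chr9:4464116-4464160, minus strand: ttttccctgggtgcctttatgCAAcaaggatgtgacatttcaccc
Edited GluA2 keeps calcium out of the channel. Counts per gene do not show editing, and no edited share was measured here. No library overlapped another subunit in the order Gria1, Gria2, Gria3, Gria4 per length.

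Gria1, the subunit added during potentiation, was at 989, 1088 and 909 CPM. Gria2 was at 797, 791 and 757 CPM, Gria3 at 236, 253 and 238 CPM and Gria4 at 118, 76.9 and 95.6 CPM. Per length these were 165 ± 14.9, 50.3 ± 1.38, 24.6 ± 0.970 and 15.3 ± 3.24 CPM per kb, so Gria2 lay 1.71 ± 0.10 (SD) below Gria1 on the log2 scale, a log2 ratio of -1.71. That gap depended on length. Annotated exons of Gria2 merge to 15548 bases and those of Gria1 to 6043, and the log2 ratio was -1.25 with the longest transcript and -0.34 with no division by length. The longest Gria2 transcript was 36.8% G and C and that of Gria1 48.5%, and the part of base composition in the ratio was not tested. Gria4 had a CV of 21.1%, with 791 highest, and its mean without 791 was 13.7 CPM per kb.

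The auxiliary subunits that carry AMPA receptors to the synapse were led by Cnih2 (282, 314 and 277 CPM, 212 ± 14.6 CPM per kb). Cacng8, the TARP best known from hippocampus, came next at 46.7 ± 5.72 CPM per kb. Cnih3 (33.9) and Cacng3 (32.6 CPM per kb) overlapped. Shisa6, Shisa9 and Cacng2 were at 14.2, 11.9 and 11.6 CPM per kb, and their places changed when single libraries were left out. Cacng4 was lowest, at 1.98 CPM per kb.

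Of the NMDA receptor subunits, Grin1, which every NMDA receptor contains, was at 369, 370.3 and 364 CPM (37.9 ± 0.350 CPM per kb). Its CV of 0.924% was the smallest of the family. Grin2c, a subunit of cerebellar granule cells and astrocytes, was at 98.2, 68.4 and 56.7 CPM and was highest in 791. Its mean per length was 14.8 CPM per kb over all 3 libraries and 12.4 without 791. Grin2b was at 60.0, 72.2 and 54.5 CPM and Grin2a at 33.0, 45.5 and 22.7 CPM, and both were highest in 792. These 2 subunits carry most NMDA receptor signalling in forebrain, yet per length they stood at 2.51 and 1.88 CPM per kb, below Grin3a (3.91) and near Grin2d (2.91 CPM per kb). Their merged exons are 24842 and 17933 bases long. The log2 ratio of Grin2b to Grin2a was 0.39, 0.20 and 0.79, with an SD of 0.30. Grin2a had a CV of 33.7%.

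Kainate receptors were led by Grik5, a subunit that needs a partner to form a channel, at 263, 253 and 263 CPM (50.3 ± 1.07 CPM per kb). Grik3, Grik4, Grik2 and Grik1 followed at 9.21, 7.87, 3.57 and 2.21 CPM per kb, with no overlap between neighbours. Among metabotropic receptors Grm5, coupled to Gq, was at 257, 259.7 and 257 CPM and Grm3, coupled to Gi and found on astrocytes, at 66.5, 76.7 and 67.4 CPM. Per length they overlapped (25.1 and 23.0 CPM per kb). Grm2, Grm7 and Grm4 stood lower, at 16.5, 9.58 and 6.05 CPM per kb. Grm4, known from cerebellar granule cells, was at 54.2, 23.6 and 30.8 CPM, and its mean per length without 791 was 4.55 CPM per kb. Grm6, the receptor of retinal bipolar cells, was at 0 CPM in 791 and 793 and 0.0517 CPM in 792, under the limit that a count of 0 allows.

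Among the alpha subunits of GABA-A receptors, Gabra5, the extrasynaptic subunit concentrated in hippocampus, was at 159.5, 163 and 162 CPM (54.3 ± 0.613 CPM per kb). Gabra3, Gabra4 and Gabra2 were at 27.0, 18.8 and 4.96 CPM per kb. Gabra6 entered this family only through 791. Without 791 its mean was 0.0258 CPM, under the limit for a count of 0.

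Of the beta subunits, Gabrb2 was at 45.7 and Gabrb1 at 1.85 CPM per kb, and their libraries did not overlap. Gabrd, a tonic subunit known from dentate granule cells, was at 54.4, 48.0 and 35.9 CPM, highest in 791 and lowest in 793. The dentate list was also lowest in 793 but highest in 792. For the GABA-B receptor, Gabbr1 was at 96.7 and Gabbr2 at 40.3 CPM per kb.

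**Figure D3:**
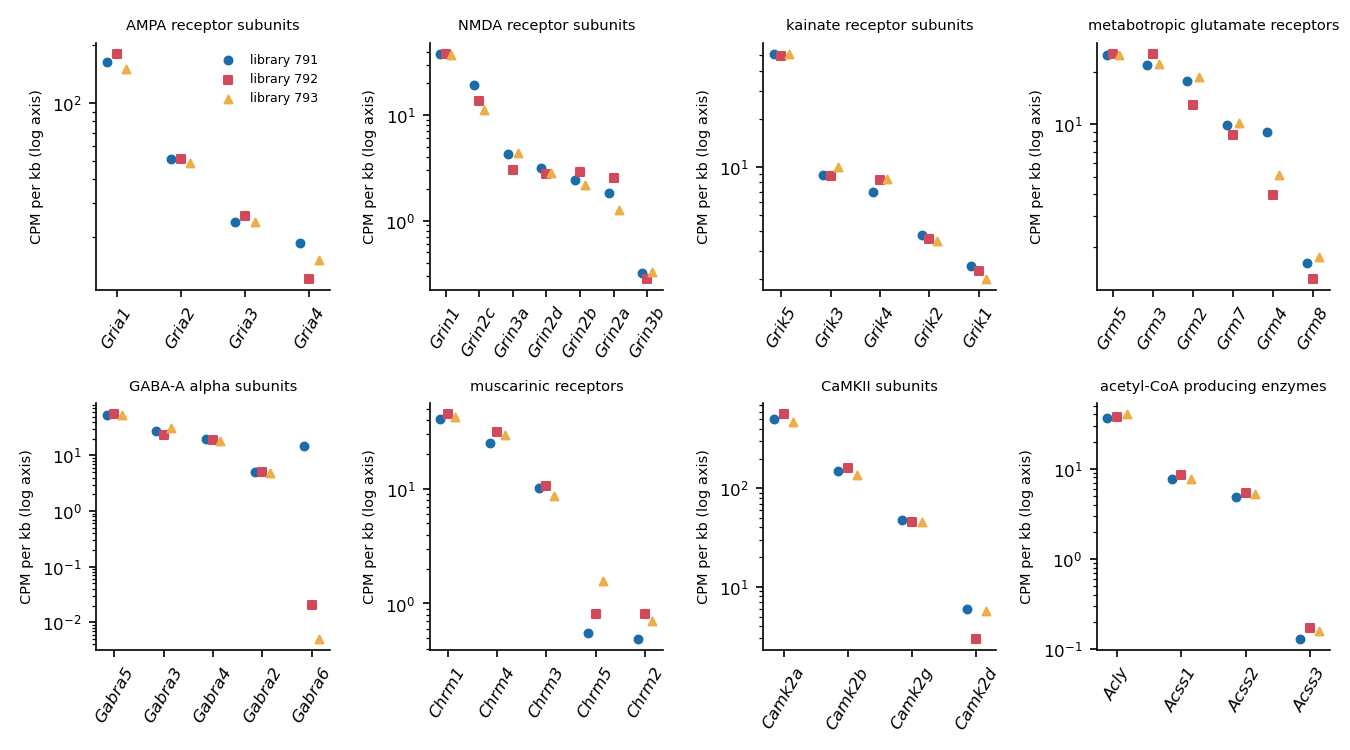
Level per length (CPM per kb, log axis) of members of 8 families in libraries 791 (circles), 792 (squares) and 793 (triangles), for the reported members with a mean of at least 0.1 CPM, ordered by mean. Gabra6 falls from 14.8 CPM per kb in 791 to 0 in 793, drawn at 0.005, while leaders such as Gria1, Grin1 and Acly differ little between libraries.

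Families of receptors for neuromodulators differed in how far 1 member led. Adora1, the inhibitory adenosine receptor, held 94.8% of its family's level per length (239, 274 and 258 CPM), and Cnr1, the neuronal cannabinoid receptor, 99.7% (205, 177 and 199.8 CPM). Chrm1, the main muscarinic receptor of pyramidal cells, was at 264, 291 and 274 CPM and led Chrm4 (28.8), Chrm3 (9.80), Chrm5 (0.974) and Chrm2 (0.670 CPM per kb). Ntrk2, the receptor of BDNF, was at 631, 677 and 608 CPM and held 89.9% of its family, against 7.32% for Ntrk3. Dopamine receptors were led by Drd5 at 14.0, 16.9 and 11.4 CPM, above Drd1 (8.49, 7.23 and 10.8 CPM) per length without overlap, whereas Drd2 averaged 1.54 CPM. Adra1d (66.4, 85.0 and 81.9 CPM) led the adrenergic receptors at 41.0 CPM per kb, with Adra2c (9.03) and Adrb1 (8.86) behind it and overlapping. Htr1a led the serotonin receptors at 36.2, 31.1 and 41.1 CPM. Htr2c, Htr7, Htr5a and Htr5b lay between 3.57 and 3.85 CPM per kb and their order was not stable. The mineralocorticoid receptor Nr3c2 (132, 148 and 99.0 CPM) and the glucocorticoid receptor Nr3c1 (121, 135 and 111 CPM) overlapped per length, with a log2 ratio of 0.28 ± 0.17.

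Transporter families hold members known from different cell classes, which bulk counts do not resolve. Slc17a7, which loads glutamate into vesicles of cortical and hippocampal neurons, was at 1648, 1678 and 1833 CPM and held 97.0% of its family, while Slc17a6 held 2.59% and Slc17a8 0.377%. Slc17a7 exceeded Slc32a1, the vesicular transporter of inhibitory neurons, by a log2 ratio of 3.07 ± 0.04, or 3.88 with the longest transcript. Of the uptake transporters for glutamate, Slc1a2 held 64.4%, Slc1a3 26.1% and neuronal Slc1a1 7.13% of the level per length. Slc1a6, the Purkinje cell transporter, was at 20.7, 10.4 and 11.8 CPM, and its mean per length of 6.63 CPM per kb became 5.14 without 791. Slc6a11, the GABA transporter of astrocytes, was at 134, 132 and 141 CPM. The glucose transporters of endothelium (Slc2a1, 77.5, 87.8 and 87.8 CPM) and of neurons (Slc2a3, 162, 157 and 176 CPM) overlapped per length. For lactate, Slc16a1 was at 42.5, 42.2 and 39.6 CPM and held 81.6% of its family.

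Acss2, the enzyme the study deletes, was a gene of moderate level. The gene lies at chr2:155517948-155585724 on the plus strand of GRCm38 (identifier ENSMUSG00000027605.18). Acss2 was at 49.2, 54.6 and 53.1 CPM, with a CV of 5.32%. Acly, which makes acetyl-CoA from citrate in the cytosol, averaged 202 ± 8.73 CPM (195 to 212), and the log2 ratio of Acly to Acss2 per length was 2.90 ± 0.07. That ratio was 1.66 with the longest transcript and 1.95 with no division by length, and Acly was higher in 3 of 3 libraries each way. Acss1, the mitochondrial enzyme, was at 31.8, 34.9 and 31.7 CPM. Which of Acss1 and Acss2 was higher depended on length. Per merged exon length Acss2 lay lower in all 3 libraries, with a log2 ratio of -0.63 ± 0.06, but with the longest transcript the log2 ratio was 0.68 and with no division 0.67. The merged exons of Acss2 span 10163 bases and those of Acss1 4128. Acss3 was at 0.932, 1.24 and 1.13 CPM.

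In glycolysis 1 member dominated most steps. Hk1, the hexokinase of brain, held 97.0% of its family (523, 523 and 583 CPM) and Pfkm 70.3% (538, 531 and 561 CPM). Aldoa, the aldolase of neurons and muscle, was at 1976, 2066 and 2306 CPM and Aldoc, that of astrocytes, at 971, 937 and 957 CPM, with a log2 ratio of 1.31 ± 0.12. Ldhb, the lactate dehydrogenase of oxidative tissue, exceeded Ldha by a log2 ratio of 1.61 ± 0.13, from 437, 430.0 and 422 against 286, 283 and 322 CPM. It was 1.01 with the longest transcript and 0.54 with no division by length. Ldhb shares 27.0% of its 50-base words with another annotated gene.

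The neuronal enolase Eno2 was at 1059.9, 1089.5 and 1092 CPM. Eno1 averaged 0.218 CPM, but its transcript shares 70.5% of its 50-base words with Eno1b and 52.8% with another annotated copy, and Eno1b averaged 0.375 CPM. No level of Eno1 can be read from these counts. Ckb, the brain creatine kinase, was at 1279, 1282 and 1259 CPM (CV 0.971%), and Glul, the glutamine synthetase of astrocytes, at 1614, 1740.0 and 1521 CPM. Gad1 (443, 430.2 and 409.8 CPM) and Gad2 (170.1, 166 and 165 CPM) make GABA and stood at 56.0 and 28.5 CPM per kb.

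Calmodulin is a case where sequence and level can be set side by side. Calm2 and Calm3 code for the same protein, so their coding sequences differ only where a codon allows it. The stretches below are 60 bases (20 codons) from exon 3 of each gene, in RNA sense (GENCODE transcripts on GRCm38), and capitals mark the 12 bases that differ between them.
Calm2, chr17:87435873-87435932, minus strand: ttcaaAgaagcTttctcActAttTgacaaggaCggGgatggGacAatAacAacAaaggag
Calm3, chr7:16917667-16917726, minus strand: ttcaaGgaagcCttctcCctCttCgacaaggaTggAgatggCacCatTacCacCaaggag
Over the 447 coding bases without the stop, identity was 82.6%. Both genes were among the 40 highest by CPM, Calm3 at 2084, 2232 and 2191 CPM and Calm2 at 1630.3, 1585 and 1557 CPM. Per length the order was the opposite, with Calm2 at 1084 ± 25.1 and Calm3 at 895 ± 31.4 CPM per kb and no overlap between them. The merged exons span 1467 bases in Calm2 and 2423 in Calm3.

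The enzymes that calmodulin acts on were led by their forebrain isoforms. Camk2a held 71.8% and Camk2b 20.9% of CaMKII per length, with a log2 ratio of 1.78 ± 0.02, the tightest of the ratios computed. Camk2b was at 1352, 1475 and 1242 CPM, so both subunits were highest in 792 and lowest in 793. Camk2d was at 133, 66.4 and 127 CPM, and 792 was lowest. Ppp3ca, the alpha catalytic subunit of calcineurin, was at 2039.9, 2274 and 1792 CPM and held 78.9% of its family. Adcy1, an adenylyl cyclase that calcium and calmodulin stimulate, was at 1526, 1559 and 1101 CPM and lowest in 793. Prkcb, a conventional protein kinase C, was at 1225, 1199 and 1180.3 CPM. Mapk3, one of the ERK kinases, was at 179.8, 155 and 182 CPM.

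**Figure D4:**
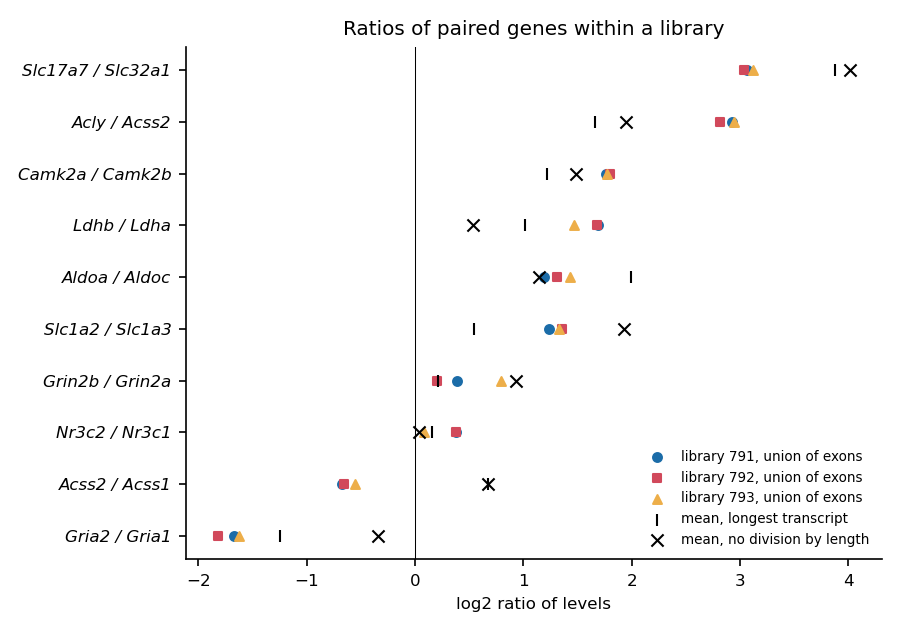
Log2 ratio of the levels of 10 pairs of genes (horizontal) per merged exon length in libraries 791 (circles), 792 (squares) and 793 (triangles), with the mean per longest transcript (vertical ticks) and with no division by length (crosses). Libraries lie close together within a pair, while the choice of length moves most pairs further than that and turns Acss2 to Acss1 from -0.63 to 0.68.

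Ratios were described against their SD, since the exact two-sided sign-flip permutation test on 3 libraries cannot go below 0.25 and so cannot reach 0.05. All 11 pairs, Eno2 to Eno1 included, gave 0.25, because each had the same sign in 3 of 3 libraries.

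Of the calcium pumps of the plasma membrane, Atp2b1 was at 929, 1075 and 803 CPM and overlapped Atp2b3 per length (61.5 and 54.6 CPM per kb). Of the sodium channels, Scn2a, listed as Scn2a1 (331, 338 and 323 CPM), and Scn8a (393, 434 and 366 CPM) overlapped at 26.0 and 25.2 CPM per kb. Scn1a, best known from fast-spiking interneurons, was at 134, 145 and 122 CPM. Hcn2 held 85.6% of the pacemaker channels per length and was at 178, 190.2 and 181 CPM.

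At the synapse, Snap25 (407 CPM per kb), Vamp2 (302) and Stx1a (78.5 CPM per kb) supplied the fusion machinery. Syn1 (672, 667 and 761 CPM) led Syn2 (794, 723 and 895 CPM) per length, at 212 against 114 CPM per kb. That lead depended on length, as the longest transcript gave 215 and 209 CPM per kb and Syn2 had the higher CPM in every library. Dlg4, which codes for PSD-95, was at 766, 819 and 759 CPM and held 42.7% of its family. Dlg1 had a CV of 0.674%.

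Mapt, the mouse gene for tau, was at 609, 619 and 630.1 CPM (82.2 ± 1.42 CPM per kb), with a CV of 1.73%. Map1a (136), Map1b (67.4), Map2 (62.8) and Map4 (47.2 CPM per kb) were further microtubule-associated genes. Map2 led at 165 CPM per kb when the longest transcript was used. App was at 2035, 2165 and 2196 CPM, and Aplp1 exceeded it per length (507 against 164 CPM per kb). With the longest transcript these were 619 and 261 CPM per kb, whereas with no division by length App was higher (mean 2132 against 1530.5 CPM). Bace1 and Adam10, which cut App at rival sites, overlapped at 19.8 CPM per kb each. Among tubulins Tuba1a (464, 446 and 523 CPM) and Tubb4a (716, 754 and 803 CPM) led, but Tuba1a shares 72.9% of its 50-base words with other genes, and the values of Tuba1a, Tuba1b, Tuba1c, Tubb2a, Tubb2b and Tubb4b are uncertain for this reason.

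The enzymes of chromatin named here ranged from 1.83 (Tet2) to 64.1 CPM per kb (Hdac11). Hdac11 (249, 236 and 255 CPM) and Hdac5 (233, 221 and 243 CPM) led the histone deacetylases at 64.1 and 26.5 CPM per kb, and Hdac3 and Hdac2, the class I enzymes of neurons, were at 21.6 and 20.5 CPM per kb. Hdac1 was at 5.08 CPM per kb and shares 58.7% of its 50-base words with other genes. Kat2a (78.3, 75.3 and 81.8 CPM) and Kat7 (105, 100.5 and 105 CPM) led the acetyltransferases at 22.6 and 18.6 CPM per kb, and Kat7 led with the longest transcript. Crebbp and Ep300, coactivators of CREB, were at 3.20 and 5.34 CPM per kb, with merged exons of 13540 and 14273 bases. Dnmt1 (8.70) exceeded Dnmt3a (3.81), Tet3 (2.76) and Tet2 (1.83 CPM per kb).

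Over all 57 families 266 members were in the table. The leading member kept its place in every family when any 1 library was left out. With the longest transcript in place of merged exons it kept it in 51 of 57, and with no division by length in 47. In 6 families the leader overlapped the next member. In 6 families the leader held over 90% of the level per length and in 18 under 50%. Among the 6 is the enolase family (Eno2, 98.2%), whose share rests on an Eno1 level that cannot be read. Of 209 pairs of neighbours in these orders, 41 overlapped between libraries and so were not separated.

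The marker lists described the tissue as a hippocampus rich in excitatory neurons. The 10 markers of excitatory neurons summed to 8414, 9354 and 8508 CPM and all 10 exceeded 5 CPM. Neurod6 was at 191, 216 and 185 CPM, Neurod2 at 132, 141 and 129 CPM and Tbr1 at 74.3, 72.5 and 81.3 CPM. The 16 markers of inhibitory neurons summed to 1460.5, 1422 and 1463 CPM. Sst was at 160.5, 189 and 193 CPM and Vip at 28.3, 28.9 and 26.7 CPM, whereas Pvalb (66.7, 48.0 and 36.6 CPM) and Calb2 (46.1, 15.6 and 24.3 CPM), which cerebellar neurons also express, were highest in 791. Without 791 the mean of Pvalb went from 50.4 to 42.3 CPM and that of Calb2 from 28.7 to 19.9 CPM.

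Each hippocampal field was present by its markers. For CA1, Fibcd1 was at 132, 154 and 146 CPM and Wfs1 at 223, 166 and 208 CPM. For CA2, Rgs14 was at 103, 114 and 98.0 CPM and Amigo2 at 13.2, 17.6 and 15.6 CPM. For CA3, Bok was at 59.6, 74.0 and 65.6 CPM and Iyd at 3.89, 4.18 and 2.15 CPM. The sums over these lists had CVs of 3.08%, 4.47% and 8.26%. Dentate granule cells varied more, with a CV of 22.2% of the sum. Prox1, the factor that sets their identity, was at 35.4, 40.2 and 23.4 CPM, C1ql2 at 96.6, 99.1 and 70.8 CPM and Lct at 48.2, 56.4 and 23.7 CPM. Without 793 the mean sum was 315 CPM, and over all 3 libraries it was 280.2 CPM.

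Glial and vascular content was close in the 3 libraries apart from myelin. Astrocyte markers summed to 5326, 5387 and 5038 CPM, with Gfap, the filament that marks reactive and hippocampal astrocytes, at 417, 513 and 375 CPM and Aqp4 at 133, 118 and 105 CPM. Microglial markers summed to 604, 660 and 598 CPM, with Csf1r at 102, 116 and 101 CPM and Cx3cr1 at 71.0, 73.9 and 64.4 CPM. Endothelial markers summed to 295, 294 and 282 CPM and mural markers to 207, 191 and 192 CPM. Those of oligodendrocyte precursors summed to 297, 329 and 300.2 CPM. Mbp, myelin basic protein, was at 1264, 2074 and 1168 CPM, and Cnp, an enzyme of myelin, at 292, 408 and 281 CPM. Mobp was at 147, 252 and 134 CPM. Without 792 the mean sum of oligodendrocyte markers was 3411 CPM, against 4048 CPM over all 3.

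Markers of neighbouring tissue set limits on the dissection. Fibroblast and meningeal genes summed to 92.3, 45.7 and 119 CPM, with Dcn at 23.1, 6.04 and 49.9 CPM. Choroid plexus genes summed to 50.6, 77.6 and 58.4 CPM, of which Ttr, the carrier of thyroid hormone, gave 22.6, 44.2 and 29.2 CPM, and only 5 of 14 had a mean of at least 1 CPM. Each of the 6 ependymal genes was lowest in 791, Foxj1, a factor of ciliated cells, at 3.34, 8.63 and 7.93 CPM among them. The 9 neocortical markers summed to 370, 364 and 407 CPM, and Tshz2 alone gave 119, 114 and 117 CPM. The hypothalamic peptides Hcrt and Pmch did not exceed 0.155 and 0.362 CPM in any library. The striatal list summed to 194, 194 and 193 CPM and all 8 of its genes had a mean of at least 1 CPM, from Adora2a at 1.42, 1.60 and 1.43 CPM to Rasd2 at 87.9, 98.1 and 83.5 CPM. The thalamic list summed to 184, 163 and 154 CPM, and 7 of its 8 genes had a mean of at least 1 CPM. Of these, Ntng1 was at 63.1, 35.4 and 70.5 CPM and Plekhg1 at 23.5, 25.3 and 15.6 CPM, and 4 of the list had a CV above 20%. The factor Gbx2, the only thalamic gene below 1 CPM, was at 0.219, 0.155 and 0.179 CPM. The hypothalamic and habenular lists summed to at most 4.30 and 8.17 CPM. T cell genes (Cd3e, Cd3g and Cd8a) did not exceed 0.0548 CPM, and the whole list of leukocytes outside the parenchyma summed to 5.37, 4.80 and 4.71 CPM. The globin genes Hba-a1, Hba-a2, Hbb-bs and Hbb-bt were listed at 0 in all 3 libraries, and as they share 58.3 to 86.9% of their 50-base words with other annotated genes, their level cannot be read. Alas2, of haem synthesis in red cell precursors, was at 4.55, 4.44 and 2.68 CPM.

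Genes of cell division and new neurons were low. Mki67 was at 1.32, 0.982 and 0.776 CPM and Top2a at 0.274, 0.568 and 0.597 CPM. Dcx, of immature neurons, was at 17.2, 13.0 and 17.1 CPM. Neurod1 was at 45.2, 20.0 and 21.5 CPM, and cerebellar granule cells express it too. The list sum was 85.6, 52.2 and 62.7 CPM, and 57.4 CPM on average without 791.

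Cajal-Retzius cells, the reelin neurons of the hippocampal fissure, were covered by 7 markers. Reln was at 106, 63.3 and 95.6 CPM, Ndnf at 11.5, 10.7 and 10.9 CPM and Trp73 at 2.36, 2.58 and 1.25 CPM. Lhx1 and Lhx5, at 2.36 and 0.767 CPM in 791, were at or under 0.155 CPM in 792 and 793. Without 791 the mean of Reln went from 88.2 to 79.5 CPM and that of Lhx5 fell to 0.137 CPM. Lhx1 fell to 0.0258 CPM, under the limit for a count of 0. Reln and Lhx1 are also known from cerebellum, and the part of cerebellar RNA in these values was not tested. Bulk counts do not say which cells gave Reln, Ndnf or Cxcl12 (mean 72.6 CPM), so these levels cannot be read as Cajal-Retzius content.

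The spread between the libraries was small for most genes. The biological coefficient of variation of the 3 libraries (the spread beyond counting error, edgeR, 14227 genes) was 8.19%, and 8.80%, 7.36% and 8.01% without 791, 792 and 793. Among 11579 genes with a mean of at least 5 CPM the median CV was 5.97%, and counting error alone would give a median of 3.86%. A CV above 20% was found for 466 genes, or 4.02% of them. Of these genes, 791 was highest for 193, 792 for 136 and 793 for 137, and 791 was lowest for 57, 792 for 225 and 793 for 184. Library 792 lay farthest from the mean for 209 of them, 793 for 130 and 791 for 127. Of the family members 18 of 225 at that level had such a CV, against the background of 4.02%. They were Gabra6, Grm4, Slc1a6, Slc16a3, Adra2a, Camk2d, Grin2a, Htr7, Grin2c, Eno3, Htr2c, Slc6a13, Gria4, Drd1, Cnih3, Gabrd, Htr5b and Shisa9, and 791 was highest for 9 of them and 792 lowest for 13.

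**Figure D5:**
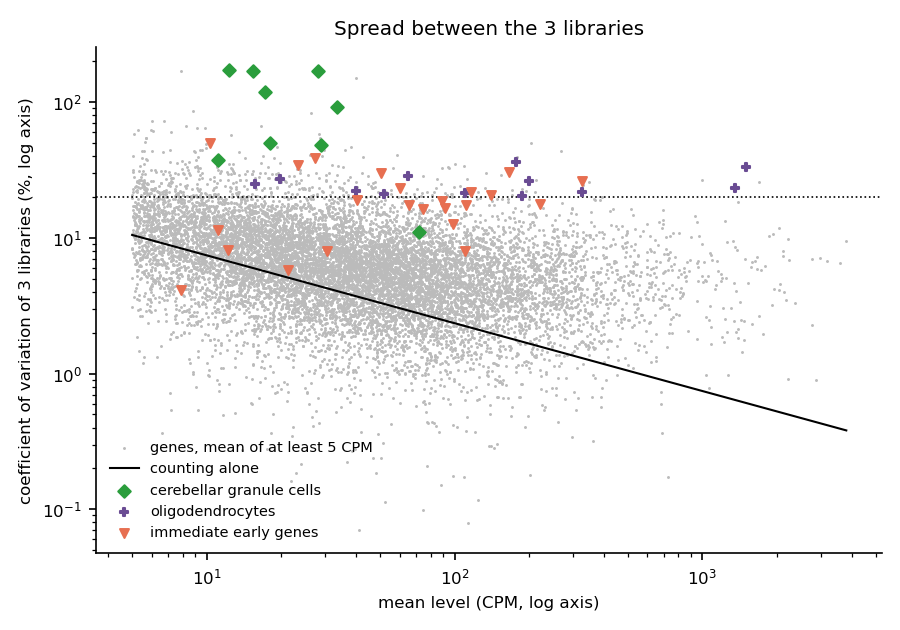
CV of the 3 libraries (vertical, log axis) against the mean level in CPM (horizontal, log axis) for 11579 genes, with the CV that counting alone gives (line) and 20% (dotted). Markers of cerebellar granule cells (diamonds) and of oligodendrocytes (plus signs) lie above 20% with 1 and 0 exceptions, while immediate early genes (inverted triangles) lie on both sides.

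The 10 genes of highest CV among 8048 with a mean of at least 20 CPM fell into few groups. Cbln3 (CV 169%), Car8 (149.9%), Cbln1 (91.6%), Neurod1 (48.8%), Calb2 (54.9%) and Chn2 (46.4%) were highest in 791. Dcn (83.8%), Cbln4 (58.3%), Ctgf (50.7%) and Nnat (50.1%) were highest in 793. Nnat, an imprinted gene of developing neurons, was at 165, 126 and 318 CPM, and Ctgf, known from the deepest cortical layer, at 22.9, 18.7 and 46.2 CPM. The 10 of lowest CV were Nup133, Eprs, Bhlhb9, Rhou, Tcf20, Tsc1, Zfp1, Eif4g2, Ube2j1 and Samm50, with CVs of 0.0699 to 0.175%. Tsc1, a brake on mTOR, was at 88.4, 88.5 and 88.2 CPM. These values lie below what counting error gives, as did those of 25.8% of all 11579 genes, so their order carries no information.

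Immediate early genes, which neurons switch on within minutes of activity, were readily measured in these mice, and 9 of 23 with a mean of at least 5 CPM had a CV above 20%. Egr1 was at 265, 426 and 291 CPM, Arc at 185, 263 and 217 CPM and Egr3 at 144, 225 and 131 CPM. Fos was at 33.0, 48.5 and 39.6 CPM, Fosb at 20.6, 39.7 and 22.2 CPM and Npas4 at 11.3, 13.3 and 12.1 CPM. Library 792 was above the other libraries for each of these 6. Jun (106, 103 and 120.0 CPM) and Nr4a2 (118, 91.1 and 142 CPM) were lowest in 792. The oligodendrocyte list was highest in the same library. With 1 such library, the mean of the immediate early sum was 1912 CPM over all 3 and 1729 CPM without 792.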

How the data were processed

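Poly(A) RNA of mouse dorsal hippocampus was sequenced in 17 libraries, of which the 3 labelled male, WT and PBS were used. The deposited values are raw read counts per gene symbol that the authors made by aligning reads to GRCm38 (mm10) with STAR 2.5.2 and counting exon overlaps with HTSeq 0.9.1 in reverse-strand mode, with no normalization. The annotation release was not given in the sources used here. By default HTSeq drops reads that align to several places, so genes with near-identical copies are undercounted. The library kit is listed under a number sold for unstranded libraries. Of 14 genes lying at least 80% within exons of an expressed gene on the other strand, 8 were below 0.1 of that gene's level per kb, and antisense genes are not reported. A row that names no gene (325 counts, 0.000598%) was left out.

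Totals ran from 16761392 to 19355501 counts. Counts were scaled to CPM, and levels per kb used the merged exons of GENCODE M21 (98.5% of symbols matched, 512 by an older name). Shared sequence is the percentage of 50-base words of the longest transcript found in transcripts of other genes. Dispersion came from edgeR 4.0.16 (TMM, filterByExpr, intercept only) in R 4.3.3, tables from pandas 2.3.3, and the spread scripts were tested on simulated data. No groups were compared and no gene was tested. The alternatives were size factors of DESeq2 1.42.0, TMM-scaled CPM, other minimum levels, the longest transcript or no length, summed counts, and each replicate left out in turn. A minimum of 20 CPM was added after seeing the data.

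Named genes were the 20 highest by CPM, the 10 highest per length, the members of 57 fixed families, 26 marker lists, the 10 highest and 10 lowest by CV at a mean of at least 20 CPM, Acss2 and Mapt. Meg3 and the genes of the 2 cerebellar lists came in through a list or after their values were seen. The members and lists were chosen with earlier results of these data known. Some genes of these families, lists and top ranks, and 3 planned ratios, are not reported here, though sums and shares include them.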

Additional observations from a re-analysis of the deposited data

How the results depend on the processing

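No paired analysis was possible because only 1 group was used and its replicate numbers occur in no other group. Of 229 values recomputed under an alternative, 120 are means of the 3 libraries with 1 left out, which by construction cannot move by the SD between libraries and say nothing about stability. The mean sum of 1 list moved over 1.5 times among them, that of cerebellar granule cell genes, from 242 to 136 CPM without 791. Of the other 109 values, 87 moved by less than the spread between libraries or, for counts of genes, by less than 1.5 times, and 20 moved further. In 2 the direction turned: the log2 ratio of Acss2 to Acss1 became 0.68 with the longest transcript and 0.67 with no division by length, which the unequal exon lengths produce by construction. The 87 values that moved less include the mean sums of all 28 lists under TMM and DESeq2 scaling. Those factors centre near 1 (TMM 0.985 to 1.015), so such means can barely move. A ratio of summed counts must lie within the range of the library ratios. These values too say little about stability. With the longest transcript the other log2 ratios that moved were -1.25 (Gria2 to Gria1), 1.22 (Camk2a to Camk2b), 1.66 (Acly to Acss2), 1.01 (Ldhb to Ldha), 0.54 (Slc1a2 to Slc1a3), 1.99 (Aldoa to Aldoc) and 3.88 (Slc17a7 to Slc32a1). With no division they were -0.34 (Gria2 to Gria1), 0.93 (Grin2b to Grin2a), 1.49 (Camk2a to Camk2b), 1.95 (Acly to Acss2), 0.54 (Ldhb to Ldha), 1.93 (Slc1a2 to Slc1a3), 1.15 (Aldoa to Aldoc), 0.033 (Nr3c2 to Nr3c1) and 4.02 (Slc17a7 to Slc32a1).

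The number of genes with a CV above 20% was 466 of 11579, 1393 of 13928 with a minimum mean of 1 CPM, 5659 of 18758 with every counted gene, and 162 of 8048 with a minimum of 20 CPM, a limit added after seeing the data. It ran from 447 to 630 with 1 library left out. The biological coefficient of variation ran from 7.36 to 8.80% with 1 library left out. Mean summed levels of all 28 lists stayed within their spread under TMM and DESeq2 scaling, which factors centred near 1 give almost by construction. The sum of a list in each library and its CV were not recomputed under these factors. With 3 libraries, 1 of which carries cerebellar transcripts and 1 high myelin and immediate early genes, the SD of a level rests on single libraries, and depth limits genes below about 1 CPM.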
